A study of Danio rerio with 6 samples.

Results

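This section describes 6 genes for intermediate filament proteins of the nervous system in zebrafish embryos, chosen by their symbols from the 31452 genes listed in the deposited files: nes, vim, inaa, inab, prph and gfap. Each symbol matched 1 row, and all 6 rows passed the filter on low counts. Intermediate filaments are rope-like polymers of the cytoskeleton, and their subunits change as a neural cell matures. Nestin (nes) and vimentin (vim) are the subunits of dividing neuroepithelial cells and radial glia, and both also occur outside the nervous system, nestin in developing muscle and vessels and vimentin in mesenchyme, endothelium and leukocytes. Alpha-internexin (inaa and inab, a pair of gene copies in the fish) and peripherin (prph) are made by neurons, internexin mainly in the central nervous system and peripherin in peripheral neurons and in neurons that project out of it. Glial fibrillary acidic protein (gfap) marks radial glia and the Müller glia of the retina.

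RNA was sequenced from whole embryos at 3 days post fertilisation in 6 pools of 15 embryos. In 3 pools the embryos carried Tg(14xUAS:GFP-EWSR1-ERG) with the driver Et(E1b:Gal4-VP16)s1101t and the reporter Tg(UAS:Kaede) s1999t, so that a GFP fusion of the Ewing sarcoma protein EWSR1-ERG was made in neurons. The other 3 pools were wild-type siblings of the same cross that did not express it, and the labels do not say whether these carried the driver or the reporter. Effects of the fusion and of the other transgenes therefore cannot be told apart, and the fusion transcript was not analysed here. The pools are called WT1, WT2 and WT3 and EE1, EE2 and EE3 (EWSR1-ERG) by their replicate numbers, and the groups WT and EE pools. The labels call the pools biological replicas without saying whether they came from separate clutches, so p-values reflect only how far these pools spread.

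Library totals ran from 4771843 to 5672149 counts in wild-type pools and from 5611197 to 13338802 in EWSR1-ERG pools, the deepest being EE3, whose file also names another sequencing lane than the rest. EE1 and WT3 stood apart from the other pools of their groups: the chi-square statistic, divided by the number of genes, was 6.27 and 9.38 for EE1 and 6.69 and 4.58 for WT3, against 3.05 and 1.66 between the remaining pairs. Levels are given as CPM, a gene's counts relative to the library total scaled by trimmed means (TMM), and as log2 fold changes of EWSR1-ERG over wild type. RNA came from whole embryos, so fewer cells of a type and less RNA per cell cannot be told apart. Transcript lengths were not used here, so levels are compared between groups for each gene and not between genes.

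The progenitor filament genes rose, 1 of the 3 neuronal genes fell by 4.88-fold, and the glial gene did not pass the test. By edgeR's quasi-likelihood test with adjustment over all 17557 tested genes, nes and vim were higher, inaa was lower (3 of 6 called), and inab, prph and gfap did not pass at 0.05. Over all tested genes 17.3% passed in either direction, 7.46% higher and 9.87% lower, and the median log2 fold change was 0.00. The groups did not overlap in nes, vim and inaa, 3 of the 6 members, and neither did they in 35.1% of all tested genes (17.1% with EWSR1-ERG higher and 18% with it lower). They overlapped in the other 3 members.

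**Figure D1:**
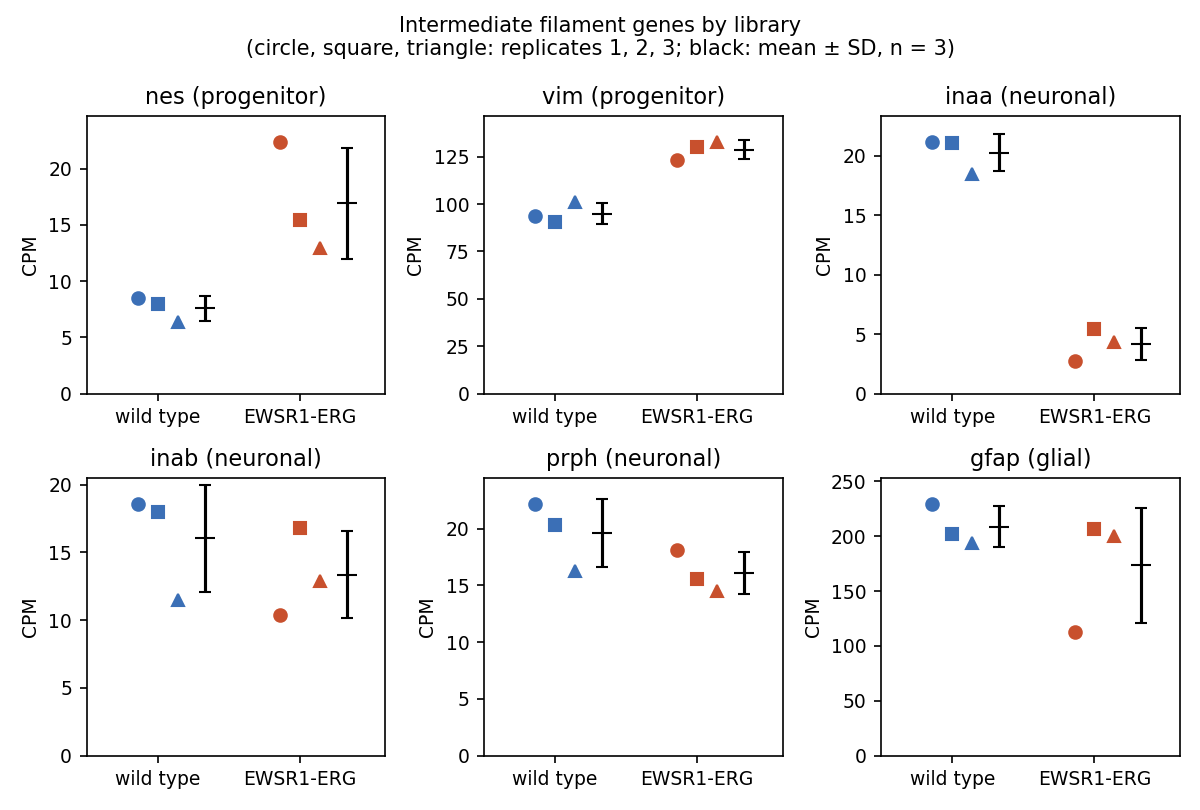
CPM of the 6 members in each library (y axis, linear from 0; blue, wild type; red, EWSR1-ERG; circles, squares and triangles, replicates 1, 2 and 3; black, mean ± SD, n = 3). The 3 EWSR1-ERG pools lie above the wild-type pools for nes and vim and below them for inaa, and the groups overlap for inab, prph and gfap.

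Nestin, whose product is the large subunit that co-assembles with vimentin in neural progenitors, is encoded by nes (ENSDARG00000088805, chromosome 16 of Zv9). It had 50, 41 and 28 counts in WT1, WT2 and WT3 and 146, 88 and 168 counts in EE1, EE2 and EE3. On the scaled level these were 8.47, 7.94 and 6.33 CPM against 22.4, 15.4 and 12.9 CPM. Every EWSR1-ERG pool stood above every wild-type pool, and EE1 stood above the other EWSR1-ERG pools. The mean level was 7.58 ± 1.11 CPM in WT pools and 16.9 ± 4.9 CPM in EE pools (SD, n = 3 each), a log2 fold change of 1.12 (SE 0.226, adjusted p = 0.00363) with an approximate 95% interval of 0.64 to 1.61. Among all tested genes 97.7% had a lower log2 fold change. Without EE1 the log2 fold change was 0.86 (adjusted p = 0.00469), and without EE1 and WT3, an alternative chosen after seeing the data, it was 0.76 (adjusted p = 0.00561).

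Vimentin, a partner with which nestin assembles, is encoded by vim (ENSDARG00000010008, chromosome 24). Its level was 93.6, 90.4 and 101 CPM in the wild-type replicates and 123, 130 and 133 CPM in the EWSR1-ERG replicates. The groups did not overlap, and within each group vim was the member with the smallest relative spread, with coefficients of variation of 5.71% and 4.2%. It rose from 95 ± 5.43 CPM in wild-type to 129 ± 5.4 CPM in EWSR1-ERG pools (SD, n = 3 each), or 1.36-fold (log2 fold change 0.44, SE 0.101, adjusted p = 0.00791, interval 0.22 to 0.66). The call ended without WT2, where the log2 fold change was 0.40 (adjusted p = 0.0808).

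The reads of the vim row may be shared with another gene. The RNA methyltransferase gene trdmt1 (ENSDARG00000034518) is the second gene from vim in the RefSeq table of the GRCz12tu assembly. Among the tested genes outside the members with a mean of at least 5 CPM, trdmt1 had the pattern most like vim. Its counts were 581, 499 and 469 in wild-type and 829, 764 and 1799 in EWSR1-ERG libraries, against 553, 467 and 447 and 802, 743 and 1737 for vim. In each library trdmt1 exceeded vim by 21 to 62 counts, which is 2.83% to 6.85% of the vim count and 3.67 to 6.19 CPM. Gene models that overlap can count the same reads; those of Zv9 were not examined, and whether these rows share reads was not tested. The rise of vim and that of trdmt1 (log2 fold change 0.41, adjusted p = 0.0119) are therefore not taken as separate measurements.

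Alpha-internexin, a subunit that neurons make early and that joins the neurofilaments, has the gene inaa (ENSDARG00000011862, chromosome 13). It had 125, 109 and 82 counts in the wild-type libraries and 18, 31 and 56 in the EWSR1-ERG libraries, the last of which was the deepest. The levels were 21.2, 21.1 and 18.5 CPM against 2.76, 5.42 and 4.30 CPM. All 3 EWSR1-ERG pools were low, and the gap between the groups was wider than the range within either. The mean was 20.3 ± 1.5 CPM in WT pools and 4.16 ± 1.34 CPM in EE pools (SD, n = 3 each; log2 fold change -2.29, SE 0.208, adjusted p = 4.04e-06), with an approximate interval of -2.73 to -1.84. Only 0.729% of the tested genes had a lower log2 fold change. Over the 16 alternative settings the value ran from -2.45 to -2.11 and the call held in all of them, with adjusted p from 1.87e-16 to 0.000116.

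The other internexin copy, inab (ENSDARG00000053248, chromosome 1), did not pass the test. Its level was 18.6, 18.0 and 11.5 CPM in WT pools and 10.4, 16.8 and 12.9 CPM in EE pools, with WT3 among the EWSR1-ERG values. The log2 fold change was -0.29 (SE 0.208, adjusted p = 0.397), with an interval of -0.74 to 0.16 that lies above the whole interval of inaa. Within a library, inab had 0.880, 0.853 and 0.622 counts for each inaa count in WT1, WT2 and WT3 and 3.78, 3.1 and 3 in EE1, EE2 and EE3. Within-library ratios do not depend on how libraries are scaled; this one was 3.99-fold higher in EWSR1-ERG pools on the log2 CPM scale, without overlap of the groups, and was given no test. Both copies lie beside a copy of the nucleotidase gene nt5c2 in the RefSeq table. The copy beside inaa, nt5c2a, stood at -0.21 (adjusted p = 0.28) and the copy beside inab, nt5c2b, at 0.26 (adjusted p = 0.174), and neither passed. The genes on the other side of inaa, the Polycomb ring finger gene pcgf6 (-0.16, adjusted p = 0.676) and the RNA polymerase subunit gene polr1c (0.29, adjusted p = 0.286), did not pass either.

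Peripherin is encoded by prph (ENSDARG00000028306, chromosome 11), which is distinct from the photoreceptor disc genes prph2a and prph2b. Its level was 22.2, 20.3 and 16.3 CPM in WT pools and 18.1, 15.6 and 14.5 CPM in EE pools. The groups overlapped, since EE1 was above WT3. The means were 19.6 ± 3.02 and 16.1 ± 1.83 CPM (SD, n = 3 each), and the log2 fold change of -0.31 did not pass (SE 0.158, adjusted p = 0.214, interval -0.65 to 0.03). With EE1 and WT3 left out, the alternative chosen after seeing the data, it was -0.51 and passed (adjusted p = 0.0163).

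The glial filament gene gfap (ENSDARG00000025301, chromosome 3) stood at 229.7, 202 and 194 CPM in wild-type pools and at 113, 207 and 199.9 CPM in EWSR1-ERG pools. EE1 was low, and the other pools of its group lay within the wild-type range. The log2 fold change was -0.27 (SE 0.197, adjusted p = 0.416, interval -0.70 to 0.17) with all libraries and -0.04 (adjusted p = 0.884) without EE1. Among all 6 libraries EE1 also held the lowest level of inaa and inab and the highest level of nes. For gfap the coefficient of variation was 9.03% in WT pools and 30.3% in EE pools, and for nes 14.7% and 29%.

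Ratios within a library set the progenitor filaments against the others. For each inaa count there were 0.4, 0.376 and 0.341 nes counts in the wild-type libraries and 8.11, 2.84 and 3 in the EWSR1-ERG libraries. On the log2 CPM scale the ratio of nes to inaa was -1.39 ± 0.11 and 1.96 ± 0.81 (SD, n = 3 each), a 10.2-fold difference. EE1 stood above EE2 and EE3, and all 3 stood above the wild-type pools. Against prph, nes had 0.382, 0.39 and 0.389 counts for each prph count in wild-type pools and 1.24, 0.989 and 0.889 in EWSR1-ERG pools. The ratio of nes to prph was thus nearly the same in all 3 wild-type libraries and 2.6-fold higher in the others. The wild-type ratios rest on 28 to 50 nes counts and 72 to 131 prph counts. Such counts are too low to show a ratio that is stable to this degree. Against gfap the ratio of nes was 2.66-fold higher and against inab 2.55-fold, and in both the groups did not overlap.

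The ratio of vim to inaa was 6.45-fold higher in EWSR1-ERG pools, from 4.42, 4.28 and 5.45 counts of vim for each inaa count to 44.6, 24 and 31. The vim ratios to prph and gfap were 1.64-fold and 1.69-fold higher without overlap of the groups. The vim ratio to inab was 1.61-fold higher with overlap, since WT3 had 8.76 vim counts for each inab count and EE2 had 7.74. In 7 of the 8 ratios of a progenitor gene to a neuronal or glial gene, the groups did not overlap. The 8 ratios reuse the 6 members. Since nes and vim were each higher and inaa lower without overlap, the ratios of nes and vim to inaa could not overlap. Single genes did not overlap in 35.1% of all tested genes, and the share for ratios of other gene pairs was not computed. These ratios share the same counts as the fold changes and were given no test of their own. Between the progenitor genes, vim had 11.1, 11.4 and 16 counts for each nes count in WT pools and 5.49, 8.44 and 10.3 in EE pools, all lower in the latter.

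**Figure D2:**
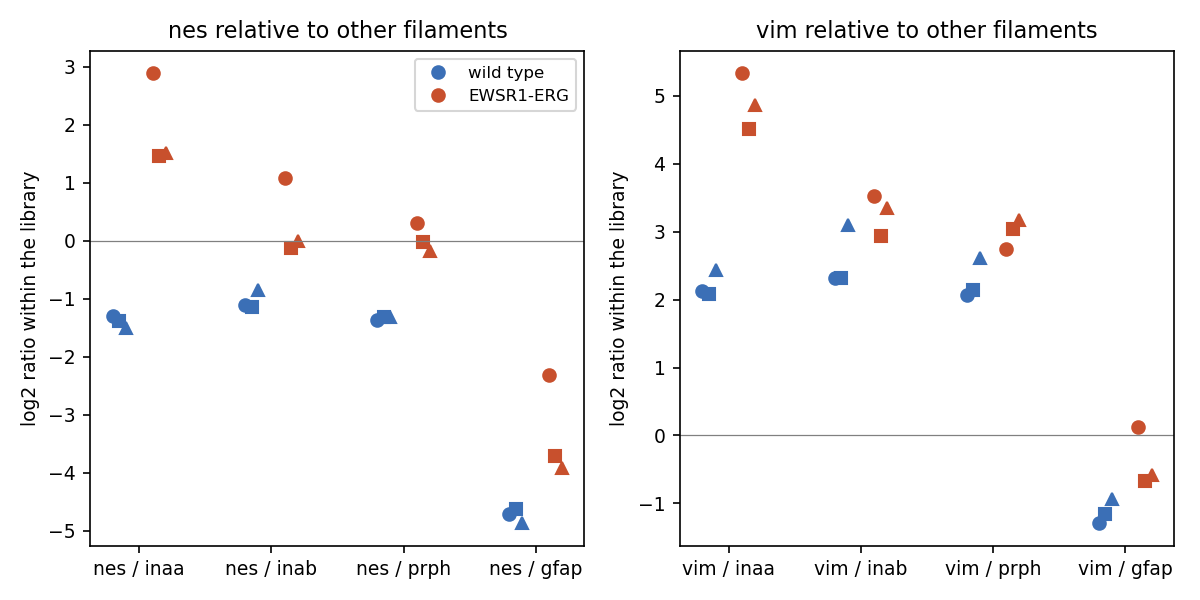
Log2 ratio of nes (left) and vim (right) to inaa, inab, prph and gfap within each library, as differences of log2 CPM with a prior count of 2 (y axis; blue, wild type; red, EWSR1-ERG; circles, squares and triangles, replicates 1, 2 and 3). EWSR1-ERG pools lie above wild-type pools in 7 of the 8 ratios, and the ratio of vim to inab overlaps.

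The patterns over the 6 libraries were compared as log2 CPM centred on each gene's mean, with the root mean square difference as the measure of distance. Among the members the closest pair was inab and gfap at 0.231, and the farthest was nes and inaa at 1.74. The distance of nes to vim was 0.455 and that of inaa to inab 1.01. Of the other genes with a mean of at least 5 CPM, those closest to inaa were rbp2a, which encodes a retinol-binding protein (0.0776), lrit1b (0.102) and rgs9a, which encodes a regulator of phototransduction G protein signalling (0.138). Their mean levels in wild-type and EWSR1-ERG pools went from 122 to 25.4, from 38.5 to 8.44 and from 28.3 to 6.05 CPM. A fall like that of inaa follows from their choice by pattern in the same libraries. Closest to nes were plekhn1 (0.0937), the hyaluronidase gene hyal2 (0.1) and si:dkey-122a22.2 (0.113). After trdmt1 (0.0185), limch1b (0.0371) and the endothelial transcription factor gene sox7 (0.0373) were closest to vim. For inab they were bin2a, cluap1 and clock3, for prph nrip2, si:ch211-225b11.1 and me1, and for gfap fam102bb, irx2a and nrxn3a. All of these were within 0.0436 to 0.0779 of their member, and the measure describes 6 libraries only.

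Of 24 neighbouring protein-coding genes, 4 for each member by the RefSeq table, 18 were tested, 2 rose, 1 fell and 15 did not pass. Over all tested genes 17.3% passed in either direction, so the number called is near the general share. The 2 that rose include trdmt1, whose rise is not taken as separate from that of vim. Beside trdmt1, the higher neighbour was gpatch4 next to nes, with 8.86 ± 1.15 CPM in WT pools and 15.4 ± 4.27 CPM in EE pools (SD, n = 3 each; log2 fold change 0.79, adjusted p = 0.0206). The lower one was the phosphatase inhibitor gene ppp1r17, the second gene from vim on the other side (-1.18, adjusted p = 0.00559). Whether the rows of nes and gpatch4 share reads was not tested either.

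The neurofilament subunits are the partners of internexin in mature axons, and 4 of 5 fell, against 9.87% of all tested genes. The median over the 5 was -0.74 (log2). The heavy subunit gene nefh stood at 13.2, 12.8 and 9.49 CPM in WT pools and 3.98, 6.65 and 6.3 CPM in EE pools (-1.06, SE 0.225, adjusted p = 0.00491). The light subunit gene nefla stood at 8.13, 6.97 and 8.81 against 3.22, 4.2 and 4.53 CPM (-0.97, adjusted p = 0.00927). The paralog neflb (-0.74, adjusted p = 0.0426) and the middle subunit gene nefmb (-0.67, adjusted p = 0.00443) fell too, while nefma stood at -0.30 (adjusted p = 0.166, interval -0.59 to 0.00). The groups did not overlap in the 4 genes that fell, and 18% of all tested genes lay lower without overlap. The log2 fold change of inaa was below the interval of each of the 5. The call of neflb ended without WT1 (-0.56) or WT2 (-0.78), and without WT3 all 5 passed. In the internexin pair and the middle subunit pair, 1 copy passed and the other did not. A difference between the copies was not tested in either pair.

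Of 7 further intermediate filament genes 1 passed, against 17.3% of all tested genes, and 2 did without EE2. The muscle desmin gene desma (ENSDARG00000058656, chromosome 9), a relative of vim, stood at 283, 276 and 320.3 CPM in WT pools and 465, 397 and 457 CPM in EE pools, without overlap (log2 fold change 0.59, SE 0.115, adjusted p = 0.00281). The other desmin gene desmb stood at -0.58 (adjusted p = 0.146), the vimentin-related gene vimr1 at 0.00 (adjusted p = 0.998), the synemin gene synm at 0.04 (adjusted p = 0.955) and the syncoilin gene sync at -0.15 (adjusted p = 0.779). The lens filament genes bfsp1 and bfsp2, which the list of lens genes also holds, stood at 0.63 (adjusted p = 0.237) and 0.81 (adjusted p = 0.137). The vimentin-like gene viml, named after its value was seen, had 14, 10 and 20 counts in WT pools and 0, 8 and 8 in EE pools (-2.14, adjusted p = 0.0297); the 0 in EE1 allows up to 0.459 CPM.

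**Figure D3:**
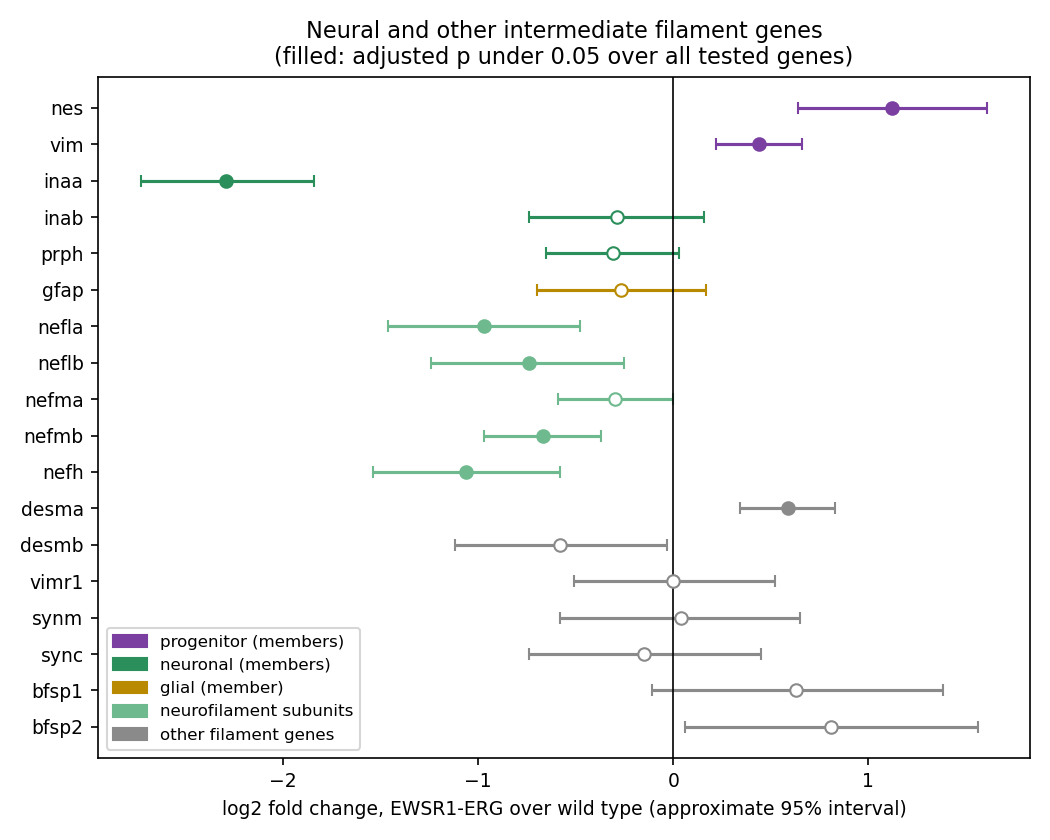
Log2 fold changes of EWSR1-ERG over wild type (x axis) with approximate 95% intervals for the members, the neurofilament subunits and other filament genes; filled points passed at an adjusted p of 0.05 over all tested genes. Of the genes that passed, nes, vim and desma lie above 0. The lens filament genes bfsp1 (0.63) and bfsp2 (0.81) also lie above 0 but did not pass. The lowest is inaa at -2.29, below the neurofilament subunits, which lie between -1.06 and -0.30.

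None of the 5 lamin and lamin receptor genes, whose products line the nucleus, passed by edgeR, DESeq2 or limma, and 1 had an unadjusted p under 0.05. Their log2 fold changes were 0.31 for lmna (adjusted p = 0.242), 0.19 for lmnb1 (adjusted p = 0.241), 0.02 for lmnb2 (adjusted p = 0.918), -0.68 for lmnl3 (adjusted p = 0.147) and -0.10 for lbr (adjusted p = 0.61). Of 9 genes for linkers between filaments and other structures 1 rose and 2 fell, at a median of 0.06. Over all tested genes 7.46% were higher and 9.87% lower. By DESeq2 0 of the linker genes were higher. The dystonin gene dst, whose product ties filaments to other parts of the cytoskeleton and to cell junctions, stood at 153, 159 and 164 CPM in WT pools and 64, 101 and 106 CPM in EE pools (-0.81, adjusted p = 0.00392). The periplakin gene ppl was lower too (-0.70, adjusted p = 0.000958). The spectraplakin gene macf1b had 2, 6 and 5 counts against 13, 17 and 34 (1.56, adjusted p = 0.0244), and its call ended without WT1 (1.13), WT2 (1.85), EE2 (1.47) or EE3 (1.52). The plectin genes pleca (0.10, adjusted p = 0.629) and plecb (0.13, adjusted p = 0.479) did not pass, nor did macf1a (0.06), evpla (-0.14), eppk1 (-0.27) and fam83hb (0.25). Of 11 genes for filament kinases and turnover 1 fell, the protein kinase A gene prkacaa (-0.51, adjusted p = 0.0167). This is near the share over all tested genes, 9.87% lower. The call of prkacaa ended without WT1 (-0.42), WT2 (-0.50) or EE2 (-0.51). Without WT3 1 gene of this list was higher.

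Beside inaa, some other neuronal genes fell. Of 16 rows for pan-neuronal genes 11 were lower, at a median of -0.66; nsfa has 2 rows, both lower, so that by symbol 10 of 15 were lower. The summed level of the list was 1496 to 2055 CPM in WT pools and 932 to 1342 CPM in EE pools. The number of lower rows was 2 without WT1, 3 without WT2 and 7 without EE1. The synaptic vesicle gene sypb (-1.19) and the synaptic fusion gene snap25b (-0.78) were lower, as was the enolase gene eno2 (-0.73), whose call ended without WT1 (-0.67) or WT2 (-0.59). The neuronal RNA-binding protein gene elavl3 stood at -0.05 (adjusted p = 0.914). Of 22 neuronal microtubule genes, at a median of -0.32, the stathmin genes stmn4l (1.20, adjusted p = 1.09e-05) and stmn4 (0.37, adjusted p = 0.024) were higher and dclk1a (-1, adjusted p = 5.22e-05) and tubb2 (-0.78, adjusted p = 0.0187) lower. These numbers called, from edgeR with all 6 libraries, are near the shares over all tested genes, 7.46% higher and 9.87% lower. By sign alone, 19 of the microtubule genes were below 0 and 3 above, and DESeq2 called 4 lower. The call of stmn4 ended without WT1 (0.38), WT2 (0.36), EE2 (0.34) or EE3 (0.33) and that of tubb2 without WT1 (-0.82) or WT2 (-0.71). Of the microtubule genes 6 were lower without WT3, 5 without EE3 and 1 without WT1 or WT2. Without both WT3 and EE1, the alternative chosen after seeing the data, 10 were lower. Among 19 tested genes of peripheral and motor neurons, where peripherin is made, mnx1 (-1.71), slc18a3a (-0.86) and isl1 (-0.56) were lower and p2rx3b (0.68) higher. The other 15 did not pass, and the median was -0.25. Over all tested genes 7.46% were higher and 9.87% lower. The summed level of this list overlapped between the groups, at 268 to 321 CPM in WT pools and 223 to 282 CPM in EE pools. The call of isl1 ended without WT1 (-0.49) or WT2 (-0.54), and that of p2rx3b without any 1 library other than EE1 (0.58 to 0.81 over all 6).

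Neural progenitor markers did not rise with nes and vim by edgeR, DESeq2 or limma. Of 20 tested none was higher, also at an unadjusted p under 0.05, and 5 were lower, at a median of -0.24, with a summed level of 867 to 902 CPM in WT pools and 759 to 835 CPM in EE pools. The shares over all tested genes were 7.46% higher and 9.87% lower. The progenitor factor gene sox2 stood at -0.10 (adjusted p = 0.576) and the replication clamp gene pcna at 0.02 (adjusted p = 0.922). The lower ones were led by prom1a (-0.76) and by 1 of 2 rows named her4.2 (-0.84) and her4.1 (-0.84), Notch targets with near-identical copies, so that their counts are uncertain; the call of her4.1 ended without WT2 (-0.84), and 3 of the list were lower without it. Of 16 early neuron genes sox11a (0.44) and sox11b (0.47) were higher and 4 lower, led by neurod1 (-0.47), hes6 (-0.50) and neurod6b (-0.65). Calls ended for sox11b without WT2 (0.46), for hes6 without EE2 (-0.43) and for neurod6b without WT2 (-0.51), EE1 (-0.49) or EE2 (-0.64), and 2 of the list were lower without WT2 or EE2.

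Beside gfap, which did not pass, 9 of 16 other radial glia genes were lower and 2 higher, at a median of -0.60. The shares over all tested genes were 9.87% lower and 7.46% higher. The summed level of the radial glia list was 2180 to 2262 CPM in WT pools and 1944 to 2070 CPM in EE pools. Of this sum slc1a2b alone made up 428 to 509.9 CPM in WT pools and 189 to 266 CPM in EE pools. Its mean fell by more than that of the sum, so the lower sum does not describe the list as a whole. The lower genes were led by mfge8a (-1.19) and the glutamate transporter genes slc1a2a (-2.57) and slc1a2b (-0.99). The higher ones were the water channel gene aqp1a.1 (0.66) and the glutamine synthetase gene glulb (0.53), whose call ended without WT2 (0.49). Of 7 genes listed for Müller glia, aqp1a.1, apoeb (1.05) and cahz (0.43) were higher, and the retinaldehyde-binding protein genes rlbp1a (-1.17) and rlbp1b (-4.56) lower. The call of cahz ended without WT1 (0.37), WT2 (0.38), EE1 (0.34) or EE3 (0.43). The summed level of this list was 1511 to 1990 CPM in WT pools and 2225 to 3249 CPM in EE pools. Without the apolipoprotein gene apoeb, which the macrophage list also holds, it was 796 to 932 and 792 to 851 CPM and the groups overlapped. The radial glia list also holds aqp1a.1 and glula, so it and the Müller glia list are not separate observations. Whether the listed genes report Müller glia in whole embryos was not tested.

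Nestin and vimentin are also made outside the nervous system, and some markers of those cells rose. The lists differed in size of change, with medians of 1.56 for macrophage, 0.51 for endothelial, 0.25 for muscle progenitor and 0.17 for mesenchyme and fibroblast genes. Over all tested genes 7.46% were higher and 9.87% lower. Of 12 tested macrophage genes 11 were higher, led by mfap4 (2.36), lcp1 (1.89) and mpeg1 (1.88). The summed level of the list was 781 to 1128 CPM in WT pools and 1626 to 2646 CPM in EE pools, of which apoeb alone made up 88.1% to 93.8%. Without apoeb it was 54.7 to 70.2 against 192 to 247 CPM. Of 12 endothelial genes plvapb (1.09), cdh5 (0.53), tie1 (0.82) and 1 other were higher and tek (-0.90) lower. The summed level was 189 to 192 against 254 to 308 CPM. Within it plvapb alone had a mean of 47.3 CPM in WT pools and 101 CPM in EE pools, and the sum without it was not computed. Without WT1 or WT2 2 of the endothelial genes were higher. The call of cdh5 ended without WT2 (0.51), and that of tie1 without WT1 (0.56), WT3 (0.87), EE1 (0.65) or EE2 (0.89). That of tek ended without WT1 (-0.83), WT3 (-0.81), EE1 (-0.83) or EE2 (-0.72). Of 10 tested muscle progenitor genes cdh15 (1.31), myod1 (0.63) and meox1 (0.57) were higher, with a summed level of 96.8 to 118 against 128 to 131 CPM. The call of myod1 ended without WT1 (0.53) or EE3 (0.58), and that of meox1 without WT1 (0.39), WT2 (0.61), EE1 (0.42) or EE2 (0.61). Without WT1 1 muscle progenitor gene was higher. Of 27 genes of mesenchyme and fibroblasts 7 were higher, led by fn1b (2.19), lgals1l1 (1.46) and fn1a (0.94), and acta2 (-1.08), col1a1a (-0.49) and lum (-0.36) were lower. The call of col1a1a ended without WT2 (-0.53), EE1 (-0.42) or EE2 (-0.47), and that of lum without any 1 library other than EE1 (-0.43 to -0.24 over all 6). The summed level of this list overlapped between the groups, at 7272 to 8801 and 7380 to 7887 CPM. No gene of these 4 lists was at 0 in every library, and their part in the rise of nes and vim was not tested.

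Nestin, vimentin and peripherin are also known to rise in injured tissue. Here nes (1.12) and vim (0.44) were higher, while prph (-0.31) and the glial gene gfap (-0.27) did not pass. Of 18 tested genes of injury and axon growth 13 were higher, led by c3a.1 (1.86), socs3b (2.65) and atf3 (2.56), at a median of 0.97, with a summed level of 1122 to 1195 CPM in WT pools and 1735 to 2144 CPM in EE pools. That number was 8 without WT1. It includes sox11a and sox11b, which the early neuron list also holds, so the 2 lists are not separate observations. Of all tested genes 7.46% were higher. The part of injury in the levels of the members was not tested. Of 11 lens genes none passed by edgeR or DESeq2, 1 passed by limma, and 1 had an unadjusted p under 0.05, at a median of 0.01; 1 was lower without WT3 and 1 higher without EE2.

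**Figure D4:**
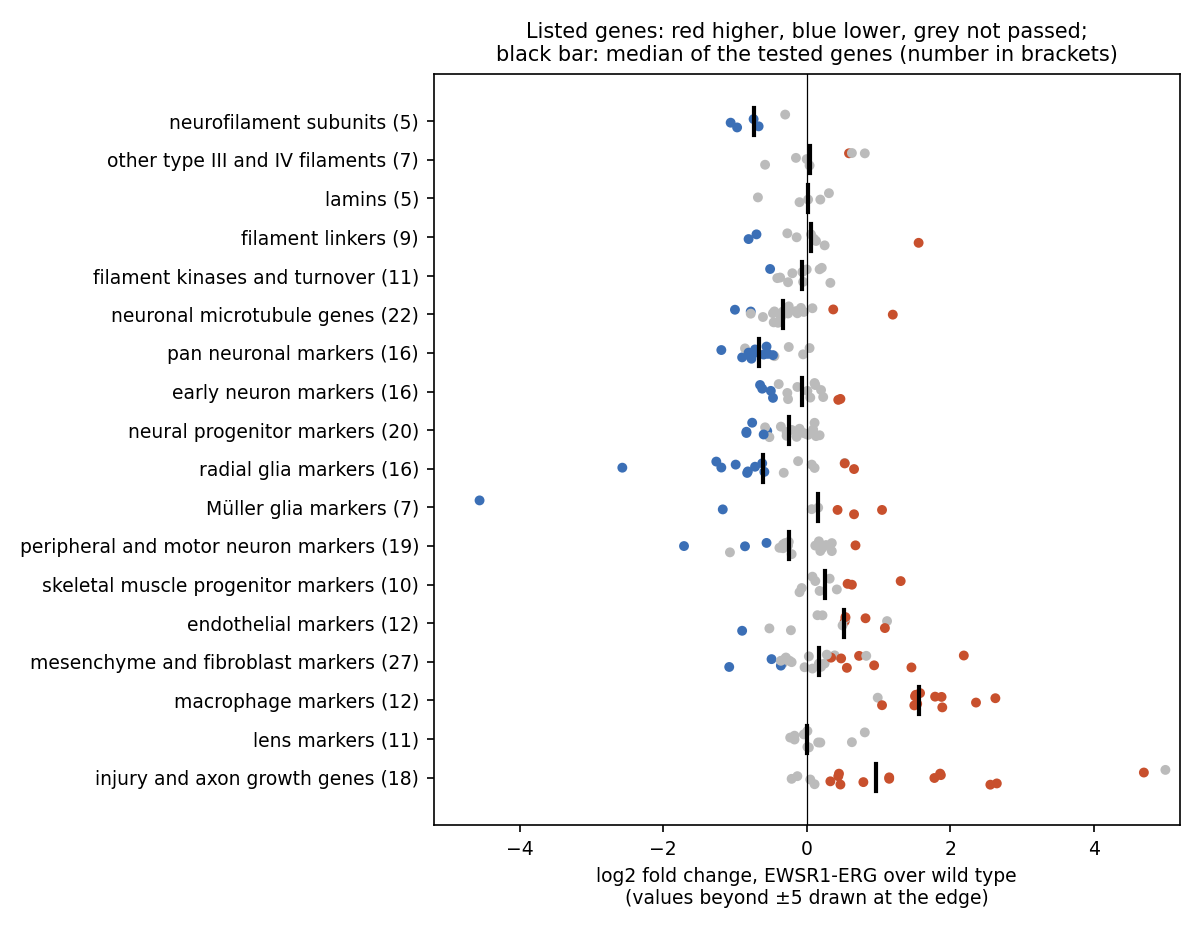
Log2 fold changes of EWSR1-ERG over wild type (x axis) for the tested genes of 18 lists (rows; number tested in brackets; red, higher; blue, lower; grey, not passed; black bar, median). Neurofilament, pan-neuronal and radial glia genes lie mostly below 0, with medians of -0.74, -0.66 and -0.60, and macrophage genes lie above 0, with a median of 1.56. The row named for other type III and IV filaments also holds the lens filament genes bfsp1 and bfsp2, which are of another type.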

How the data were processed

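Each deposited file gave, for 1 library, the chromosome, symbol, Ensembl identifier and count of each gene. Because each deposited file ends in a size factor that is not whole, its values are named expected counts; those of the genes were whole and were not rounded. Per the submitters' processing notes, Bowtie2, SAMtools, DESeq and the Zv9 build were used; their roles and versions, the annotation and the use of strand were not stated. Overlapping and antisense genes can therefore not be told apart. In each file 2 lines without a gene, its size factor among them, were dropped.

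Genes were kept by filterByExpr (minimum count 10, minimum total 15), which left 17557. Libraries were scaled by TMM and compared by edgeR 4.0.16 (quasi-likelihood F test, robust, Benjamini-Hochberg over all tested genes, threshold 0.05), with no covariate. SE is the absolute log2 fold change divided by the square root of F, and the 95% interval uses that SE, so both are approximate. A count of 0 allows up to 3 counts, or 0.23 to 0.678 CPM, for counting error only.

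The alternatives also used DESeq2 1.42.0 and limma 3.58.1 (voom). The members and the 18 other lists (278 entries, 263 matched by symbol, name table or RefSeq synonym) were chosen with earlier results of these data known, and lists are described by counts and medians over rows, with no set test; in 5 lists 1 symbol has 2 tested rows. Named genes were all members, all genes of the filament, lamin and linker lists, the 3 smallest p-values per direction in each other list, and the 3 closest patterns to each member; others were named after their values were seen, among them the neighbours in GRCz12tu. No sequence of the members was used here.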

Additional observations from a re-analysis of the deposited data

How the results depend on the processing

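Over 16 alternative settings inaa (-2.45 to -2.11) and nes (0.76 to 1.31) kept their direction and their calls, and inab (-0.46 to -0.17) and gfap (-0.41 to -0.04) passed in none. With 1 library left out vim ran from 0.40 to 0.49 and lost its call without WT2 (adjusted p = 0.0808); its adjusted p over all settings ran from 2.26e-05 to 0.0808. The value of prph ran from -0.41 to -0.21 with 1 library left out, and was -0.51 and passed (adjusted p = 0.0163) with WT3 and EE1 both left out; the cause was not tested. With 1 library left out, 646 to 1334 genes were higher and 981 to 1668 lower, against 1309 and 1732 with all 6; the lowest counts came without WT2 (646 and 981) and without WT1 (718 and 1135). Same-numbered libraries of the groups did not deviate together (correlations of -0.123, 0.0881 and -0.0213). With 3 pools per group, of which EE1 and WT3 stood apart, this check cannot exclude a pairing. With a replicate block 1066 genes were higher and 1482 lower and no member's call changed (inaa -2.29, nes 1.14, vim 0.44). Ratios of progenitor to other filaments moved by less than their spread with a prior count of 0.5. Of 1567 further values for listed genes and lists, 1431 kept their side of the threshold or stayed within 1.5 times the main count. In wild-type pools nes rests on 28 to 50 counts and in EWSR1-ERG pools inaa rests on 18 to 56, which limits the precision of their ratio.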
